A study of Mus musculus with 8 samples.

Results

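The genes described here encode the proteins of the cytosolic ribosome. They were chosen by symbol alone: Rpl or Rps followed by a number, with at most 1 further letter of a fixed set, together with Rplp0 to Rplp2 and Rpsa. Of 23420 gene symbols, 80 met this rule, 49 for proteins of the large subunit and 31 for proteins of the small subunit. They were followed in RNA-seq counts of 8 libraries from mouse embryonic fibroblasts (MEFs) of C57BL6/N background that expressed E1A, an adenoviral oncoprotein, and HRasV12, an activated Ras. Of these, 4 libraries were wild-type for Neat1 and 4 came from Neat1-/- cells (Neat1 null), and E1A and HRasV12 were shared by both groups. Neat1 is a long noncoding RNA that scaffolds nuclear bodies called paraspeckles, and the study's title names it as a target of p53 with a role in suppressing transformation. The labels do not say how many embryos or cultures the libraries came from, and p-values therefore reflect only the spread among these 8 libraries, which may be technical.

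Each ribosome holds 1 copy of nearly every ribosomal protein, next to the ribosomal RNAs. Ribosomal protein mRNAs are short and among the most abundant mRNAs of a growing cell. They commonly start with a C followed by a run of pyrimidines, the 5′ terminal oligopyrimidine (5′TOP) motif, through which their translation responds to growth signals. Free Rpl5 and Rpl11, with 5S ribosomal RNA, bind Mdm2 and so link ribosome assembly to p53.

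Promoter windows from RefSeq (GRCm38.p6) were matched by symbol for 60 of the 80 genes, in 72 windows. The 40 bases around annotated starts are shown for members with large, moderate or uneven changes in the comparison that follows, each 5′ to 3′ on the gene's strand, with the start as base 21. Capitals mark the longest run of C and T. Rplp2, Rpl38, Rps10, Rps24, Rps6 and Rpl15 have a run of at least 8 in this window, and Rpsa and Rpl41 do not.
Rplp2, chr7:141447631-141447670, plus strand: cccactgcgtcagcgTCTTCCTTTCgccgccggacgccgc
Rpl38, chr11:114668560-114668599, plus strand: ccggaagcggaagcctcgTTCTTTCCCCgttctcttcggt
Rps10, chr17:27635225-27635264, minus strand: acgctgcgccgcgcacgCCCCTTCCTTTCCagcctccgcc
Rps24, chr14:24490658-24490697, plus strand: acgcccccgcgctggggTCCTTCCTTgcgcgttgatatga
Rps6, chr4:86857348-86857387, minus strand: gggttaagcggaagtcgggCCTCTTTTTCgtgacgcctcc
Rpl15, chr14:18270967-18271006, minus strand: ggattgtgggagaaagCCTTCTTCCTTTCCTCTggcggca
Rpsa, chr9:120127746-120127785, plus strand: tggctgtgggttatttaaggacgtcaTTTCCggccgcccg
Rpl41, chr10:128549149-128549188, minus strand: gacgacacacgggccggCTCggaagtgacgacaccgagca

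A run of at least 8 pyrimidines lay within 20 bases of an annotated start in 29 of the 60 genes (48.3%), against 18.4% of all 27025 genes with a window. Large and small subunit genes did not separate by this feature, which was present in 18 of 37 and 11 of 23. The letters CCGGAAG, the core bound by ETS factors, were found on either strand of the 300-base window in 25 of the 60 genes (41.7%) and in 9.93% of all genes. CCATNTT, the core of the YY1 motif, was found in 31.7% against 18.2%, CACGTG, the Myc E-box, in 10.0% against 8.09%, and TATAAA in 10.0% against 15.7%. These matches describe letters in the windows, and overlaps between motifs were not removed. Among the tested genes with a window, 19 of 29 with a pyrimidine run and 21 of 28 without one were higher in Neat1 null (medians of the log2 fold change 1.65 and 1.87). Over all genes tested, 9.97% were called higher.

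The libraries held 19651035 to 38950207 counts assigned to genes. Levels are given as CPM (counts per 1e+06, scaled between libraries by TMM), always for libraries 1 to 4 in that order. Neat1 itself was at 138, 588, 753 and 1319.6 CPM in wild-type and 6.92, 11.3, 7.90 and 6.12 CPM in Neat1 null, a log2 fold change (± standard error) of -6.44 ± 0.66 (edgeR, adjusted p = 0.000761). The groups did not overlap, and wild-type library 1 was the lowest of its group. Fibroblast markers (10 of 10 detected and tested) summed to 1896 to 3526 CPM in wild-type and 2649 to 4104 CPM in Neat1 null. Most of this was Vim and Fn1. Of the collagens, Col1a1 and Col3a1 were at or below 12.4 CPM in each library, Col1a2 at 0.741 to 77.1 CPM and Col5a1 at 57.8 to 127 CPM. Of the fibroblast markers, 1 was called higher and 1 lower, where 9.97% of all genes tested were called higher and 7.72% lower. Pdgfra was at 41.2, 40.9, 148 and 129 CPM in wild-type and 10.9, 8.36, 3.92 and 6.87 CPM in Neat1 null. The 5 epithelial markers summed to 199 to 683 and 271 to 3292 CPM, the highest sum being mostly Krt18 in Neat1 null library 1 (3144 CPM). The 4 neural markers summed to 208 to 345 and 77.3 to 564 CPM, with 1 called lower. The part of these markers in the results was not tested. Leukocyte markers summed to 9.20 to 102 CPM in wild-type and 4.13 to 18.4 CPM in Neat1 null, most of it Cd68, with Ptprc at 0 in all libraries. Only 1 of these markers was tested, and it was called lower. Muscle markers summed to 2.64 to 15.3 CPM (Myod1 at 0), endothelial markers to 0.359 to 9.90 CPM and erythroid markers to 0.459 to 1.53 CPM (Hba-a1 at 0) over all libraries.

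Ribosomal protein genes took up a larger share of all counts assigned to genes in each Neat1 null library than in any wild-type library. The 80 genes held 5.86%, 6.92%, 6.48% and 6.20% of the gene counts in wild-type libraries 1 to 4 (mean 6.36 ± 0.448, SD, n = 4). In Neat1 null libraries 1 to 4 they held 25.1%, 9.03%, 14.9% and 8.25% (mean 14.3 ± 7.76, SD, n = 4). The groups did not overlap, and Neat1 null libraries 1 and 3 stood above the other 6. Ambiguous reads also separated the groups, at 1.09% to 1.22% in wild-type and 1.34% to 1.76% in Neat1 null with libraries 1 and 3 highest, and reads outside genes had means of 13.1% and 8.13%; their part in the share was not tested. Without the library at 25.1% the difference between the group means fell from 7.94 to 4.35 percentage points. A share of counts gives neither RNA per cell nor the number of cells: in bulk RNA, fewer cells of a kind and less RNA per cell cannot be told apart.

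Each subunit showed the same order of libraries. Large subunit genes held 3.45%, 4.05%, 3.90% and 3.73% in wild-type and 13.9%, 5.22%, 8.56% and 4.81% in Neat1 null. Small subunit genes held 2.41%, 2.86%, 2.59% and 2.47% in wild-type and 11.2%, 3.82%, 6.29% and 3.45% in Neat1 null. In both subunits Neat1 null library 1 was the highest, library 3 the next and library 4 the lowest of the null group.

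**Figure D1:**
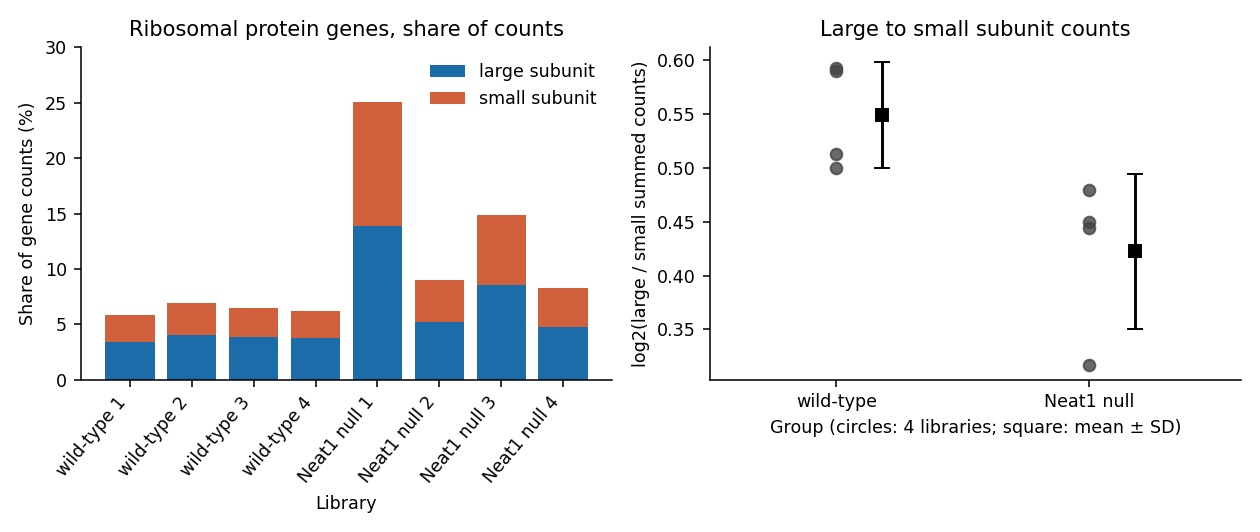
Left, the share of all gene counts (%) taken by large and small subunit genes in each of the 8 libraries, as stacked bars. Right, log2 of summed large over summed small subunit counts, 1 circle per library, with the mean ± SD of 4 libraries per group as a square: Neat1 null library 1 holds 25.1% ribosomal protein counts and the lowest ratio.

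The balance between the subunits differed little between the groups. The log2 ratio of summed large to summed small subunit counts was 0.51, 0.50, 0.59 and 0.59 in wild-type (mean 0.55 ± 0.05, SD, n = 4) and 0.32, 0.45, 0.44 and 0.48 in Neat1 null (mean 0.42 ± 0.07, SD, n = 4). The groups did not overlap, and the difference of means was -0.13. Large subunit genes made up 59.4% ± 0.823 of the ribosomal protein counts in the wild-type group, against 57.3% ± 1.23 in the null group (SD, n = 4). With Rpsa left out, a choice made after its values were seen, the log2 ratios were 0.63, 0.63, 0.70 and 0.72 in wild-type and 0.63, 0.57, 0.60 and 0.63 in Neat1 null, the groups overlapped, and the difference of means was -0.07. A mean of log2 CPM over members, which gives each gene the same weight, also those with few counts such as Rpl39l, overlapped too, at -0.48, -0.34, -0.41 and -0.29 against -0.61, -0.44, -0.53 and -0.34. Among members of at least 10 CPM without close paralogs, the summed log2 ratios did not overlap between the groups. They were 0.54, 0.51, 0.60 and 0.60 in wild-type and 0.32, 0.47, 0.46 and 0.50 in Neat1 null.

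Gene by gene, most ribosomal protein genes were called higher in Neat1 null. Of the 80 members, 77 passed the filter on low counts, and edgeR's quasi-likelihood test called 53 of them higher and 0 lower at an adjusted p under 0.05. Across all 13316 genes tested, 9.97% were called higher and 7.72% lower. By subunit, 30 of 46 large and 23 of 31 small subunit genes were called. All 77 log2 fold changes were above 0, with a median of 1.85 (1.77 for the large and 1.91 for the small subunit) and a range of 0.53 to 3.27, beside a median of -0.06 over all genes tested. The groups did not overlap for 65 members, all higher in Neat1 null, and this held for 11.7% of all genes tested. The large subunit genes that did not pass were Rpl10, Rpl17, Rpl21, Rpl22, Rpl23, Rpl23a, Rpl30, Rpl31, Rpl35a, Rpl36a, Rpl39, Rpl39l, Rpl4, Rpl5, Rpl7 and Rpl7a, and those of the small subunit included Rps18, Rps23, Rps24, Rps26, Rps27, Rps27a and Rps7. Changes of single genes are given as log2 fold changes with their standard errors.

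The number of called members depended on single libraries, as did the number of called genes overall. Omitting wild-type library 1 gave 37 members (14 of the small subunit) beside 10.7% of all genes tested, and omitting wild-type library 2 gave 25 beside 6.25%. Omitting null library 1 gave 30 members beside 6.71% of all genes, with a median of 1.29, omitting null library 2 gave 63 beside 12.5%, and omitting null library 4 gave 62 beside 9.99%. In the fits lacking wild-type library 3, wild-type library 4 or null library 3, edgeR called 0 members and 0.015%, 0.00746% and 0.0511% of all genes higher, so few genes of any kind were called there. Their smallest adjusted p-values were 0.0706, 0.0704 and 0.0646, and 65, 64 and 68 members had an unadjusted p under 0.05. Over the 8 fits lacking 1 library, the median log2 fold change lay between 1.29 and 2.10. Without both Neat1 null libraries 1 and 3 the median was 0.69, 0 members and 0.0355% of all genes were called higher by edgeR, and 48 members had an unadjusted p under 0.05. The share of all genes with an unadjusted p under 0.05 was not worked out, so these member counts have no baseline. Upper-quartile scaling, which moved the median of all genes to -0.24, called 46 members beside 7.78% of all genes, and DESeq2 called 66 beside 15%. DESeq2 gave no adjusted p for Rpl5, Rpl21, Rpl36a, Rps24 and Rps27a, so these could not be called there. Correcting each library for transcript length and GC content left 1 member called, beside 2.32% of all genes, and a median of 0.77.

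**Figure D2:**
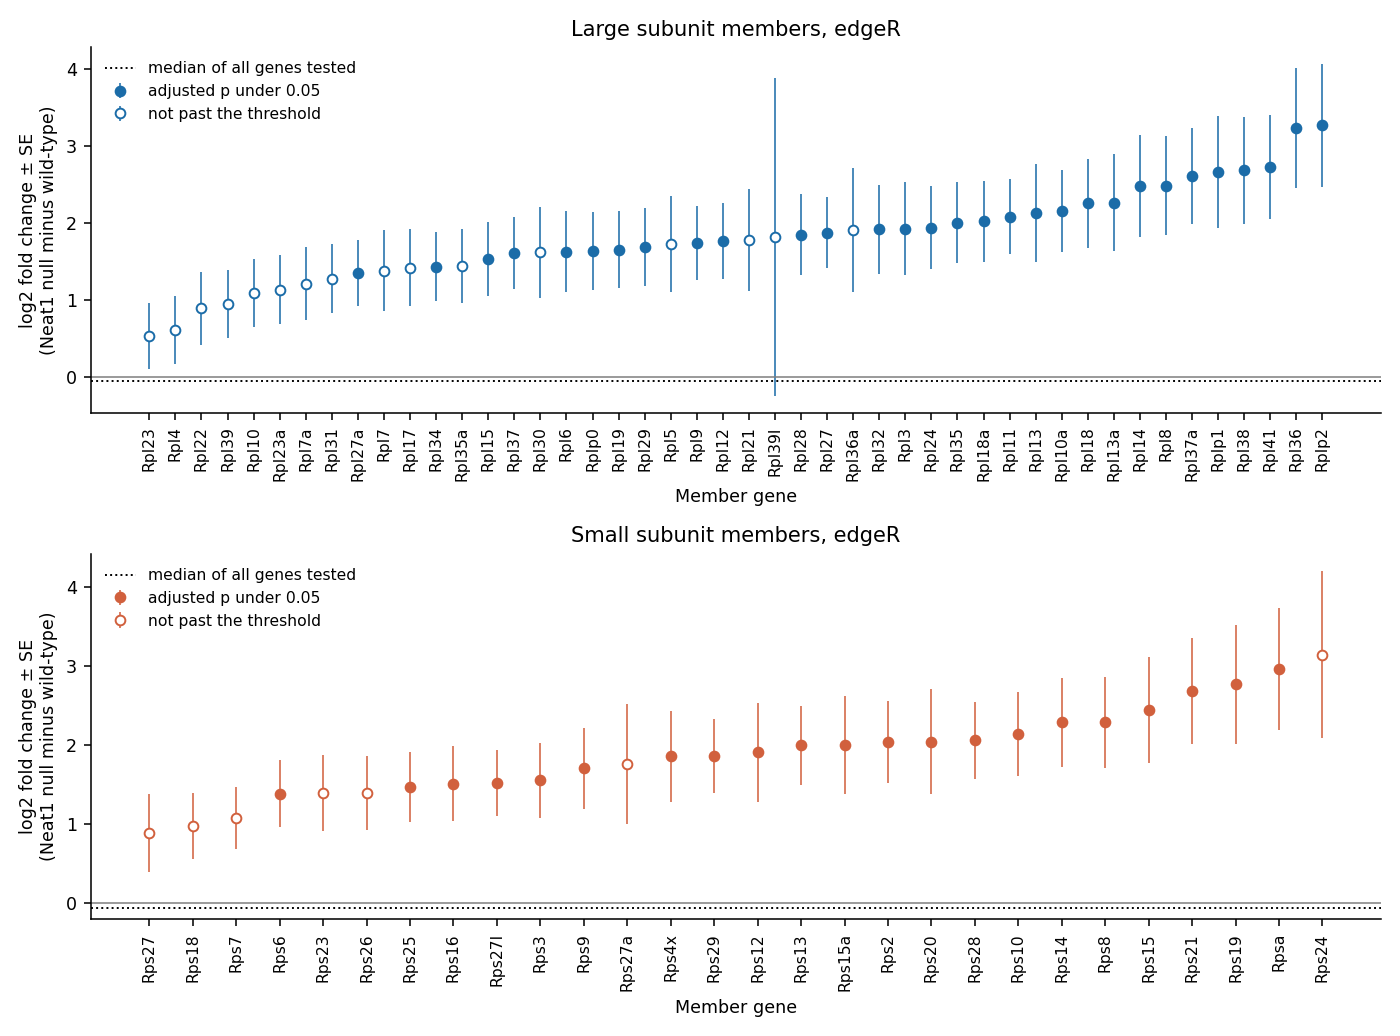
Log2 fold change of the tested members (3 of the small subunit are not drawn), Neat1 null minus wild-type, with its standard error from edgeR (4 libraries per group), ordered by size within the large (top) and small (bottom) subunit. Filled circles passed an adjusted p of 0.05: all members drawn lie above 0, from Rpl23 at 0.53 to Rplp2 at 3.27, and the dotted line is the median of all genes tested, -0.06.

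The largest changes of the large subunit included Rplp2, Rplp1, Rpl36, Rpl41 and Rpl38. Rplp0, Rplp1 and Rplp2 form the stalk that recruits elongation factors. Rplp2 (chr7:141447370-141451585, plus strand, GRCm38) was at 522, 534, 432 and 431 CPM in wild-type and 13834, 879, 2915 and 869.8 CPM in Neat1 null. Every null library lay above every wild-type library, with library 1 the highest and library 3 next, and the log2 fold change was 3.27 ± 0.80 (edgeR, adjusted p = 0.0200). Rplp1 was at 1334, 1344, 892 and 1053 CPM in wild-type and 20572, 1701, 4826 and 2178 CPM in Neat1 null, a change of 2.66 ± 0.73 (edgeR, adjusted p = 0.0257). Rplp0, which anchors the stalk, was at 2279.7, 2192, 1814 and 1872 CPM in wild-type and 9049.8, 2753, 9368 and 4145 CPM in Neat1 null. Its 2 highest null libraries, 1 and 3, were nearly level, the groups did not overlap, and the change was 1.63 ± 0.51 (edgeR, adjusted p = 0.0402).

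Rpl36 was at 531, 537, 316 and 348 CPM in wild-type and 11943, 898, 2616 and 856 CPM in Neat1 null, a log2 fold change of 3.24 ± 0.78 (edgeR, adjusted p = 0.0193). Rpl41, whose protein is among the smallest of the cell, was at 940.0, 1129, 757 and 710.4 CPM in wild-type and 14453, 1881, 5503 and 1557 CPM in Neat1 null, a change of 2.73 ± 0.67 (edgeR, adjusted p = 0.0201). Both showed the same order of null libraries as the summed counts, without overlap. Rpl37a and Rpl8 rose by 2.61 ± 0.63 (edgeR, adjusted p = 0.0191) and 2.49 ± 0.64 (edgeR, adjusted p = 0.0225). Rpl38, which is known for its part in translating Hox mRNAs, was at 243, 243, 188 and 175 CPM in wild-type and 3854, 380.2, 910.3 and 316 CPM in Neat1 null and rose by 2.68 ± 0.69 (edgeR, adjusted p = 0.0232). Neat1 null library 1 was the highest for each of these genes.

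Rpl5 and Rpl11, partners in the 5S particle, did not pass the test alike. Rpl11 was at 620.2, 481, 407 and 374 CPM in wild-type and 3318, 1232, 2489 and 913 CPM in Neat1 null. All null libraries were above all wild-type libraries, and the change was 2.08 ± 0.49 (edgeR, adjusted p = 0.0189). Rpl5 was at 508, 509, 613 and 513 CPM in wild-type and 4879, 851, 757 and 595 CPM in Neat1 null, where Neat1 null library 1 stood alone and library 4 overlapped the wild-type range. Its change was 1.72 ± 0.62 (edgeR, adjusted p = 0.0652), and without Neat1 null library 1 it was 0.45. The difference between Rpl5 and Rpl11 was not tested.

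At the low end of the large subunit were Rpl23, Rpl4 and Rpl22, none of which passed. Rpl23 was at 681, 714, 812 and 830.4 CPM in wild-type and 1746, 694, 1278 and 659 CPM in Neat1 null, with null libraries 2 and 4 inside or just below the wild-type range and a log2 fold change of 0.53 ± 0.43 (edgeR, adjusted p = 0.386). Rpl4 was at 2067, 2307, 2411 and 2349 CPM in wild-type and 5411, 3213, 2696 and 2567 CPM in Neat1 null. The groups did not overlap for Rpl4, but the change was small beside its error, at 0.60 ± 0.44 (edgeR, adjusted p = 0.333). Rpl22, which has the close paralog Rpl22l1, was at 258, 243, 344 and 435 CPM in wild-type and 1272, 380.1, 378 and 339.7 CPM in Neat1 null, with null libraries 2 to 4 inside the wild-type range and a change of 0.89 ± 0.48 (edgeR, adjusted p = 0.190). Rpl23a did not pass either, at 1.13 ± 0.45 (edgeR, adjusted p = 0.0873).

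In the small subunit, Rpsa had the highest level of any member in a single library. Rpsa (also known as the laminin receptor; chr9:120127689-120132369, plus strand) was at 1769, 1982, 1467 and 1619.7 CPM in wild-type and 38704, 2791, 8610.0 and 3309 CPM in Neat1 null, and it rose by 2.97 ± 0.78 (edgeR, adjusted p = 0.0233). Rps19, mutated in Diamond-Blackfan anaemia, was at 479, 449, 434 and 441 CPM in wild-type and 9184, 678, 1793 and 659.9 CPM in Neat1 null and rose by 2.77 ± 0.75 (edgeR, adjusted p = 0.0257). For both, the groups did not overlap and null library 1 was far above the rest. Rps15, near the decoding site, was at 967, 1081, 953 and 964 CPM in wild-type and 13997, 1596, 4436 and 1525 CPM in Neat1 null, a rise of 2.44 ± 0.67 (edgeR, adjusted p = 0.0261). Rps2 had its highest value in null library 3 instead, at 1749.9, 1622, 971 and 901 CPM in wild-type and 5444, 3323, 9587 and 3219.9 CPM in Neat1 null, and rose by 2.04 ± 0.52 (edgeR, adjusted p = 0.0218).

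Rps6, the substrate of S6 kinases, was at 649, 692, 534 and 633 CPM in wild-type and 2185, 1035, 2265 and 1066 CPM in Neat1 null. Null libraries 1 and 3 were level, libraries 2 and 4 were also above every wild-type library, and the change was 1.39 ± 0.43 (edgeR, adjusted p = 0.0390). Rps28, Rps14, Rps10 and Rps29 had some of the smallest adjusted p-values of the subunit, with log2 fold changes of 2.06 ± 0.48 (edgeR, adjusted p = 0.0189), 2.29 ± 0.56 (edgeR, adjusted p = 0.0200), 2.14 ± 0.53 (edgeR, adjusted p = 0.0205) and 1.86 ± 0.47 (edgeR, adjusted p = 0.0208). These 4 genes did not have the largest fold changes. Their null libraries were closer together than those of Rpsa: Rps10 was at 667, 843, 577 and 599 CPM in wild-type and 5455, 1427, 3747 and 1238 CPM in Neat1 null.

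Rps24 had the largest fold change of all small subunit genes and did not pass the test. Rps24 (chr14:24487125-24496959, plus strand) was at 558, 453, 602 and 456 CPM in wild-type and 16464, 628, 624 and 626 CPM in Neat1 null. Null libraries 2 to 4 were nearly level, just above the highest wild-type library, while library 1 was 31.8 times the wild-type mean. The change was 3.15 ± 1.06 (edgeR, adjusted p = 0.0598), and without library 1 it was 0.28. Rps27a, which is made as a fusion with ubiquitin, was at 848, 757, 776 and 711 CPM in wild-type and 8374, 813, 609 and 666 CPM in Neat1 null, with null libraries 3 and 4 below every wild-type library and a change of 1.76 ± 0.76 (edgeR, adjusted p = 0.113). Rps18 and Rps7 also did not pass, at 0.97 ± 0.42 (edgeR, adjusted p = 0.110) and 1.08 ± 0.40 (edgeR, adjusted p = 0.0704).

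Rps27 and its paralog Rps27l differed in how well their counts can be told from other genes'. Rps27l, a p53 target, was at 339, 198, 142 and 147 CPM in wild-type and 746, 399, 723 and 498 CPM in Neat1 null and rose by 1.52 ± 0.41 (edgeR, adjusted p = 0.0259), without overlap of the groups. Rps27 was at only 2.86, 2.10, 2.07 and 1.92 CPM in wild-type and 2.34, 3.58, 7.13 and 3.42 CPM in Neat1 null, with a change of 0.88 ± 0.49 (edgeR, adjusted p = 0.209). Of the 50-base stretches of its transcript, 98.65% occur in other genes' transcripts as well. Over all members the median of that share was 49.2%, mostly through pseudogenes, from 0 for Rpl39l upward. The authors' handling of reads that fit several genes is not given in the sources used here, so levels of members with near-identical copies are uncertain. Rpl34 and Rpl30 were also low, with shares near the median, at 50.6% and 47.8%. Rpl34 was at 13.5, 7.49, 4.24 and 5.11 CPM in wild-type and 23.4, 13.6, 31.6 and 13.2 CPM in Neat1 null and rose by 1.43 ± 0.45 (edgeR, adjusted p = 0.0415). Rpl30 ranged from 0.629 to 3.29 CPM in wild-type and from 3.37 to 6.38 CPM in Neat1 null, and did not pass at 1.62 ± 0.60 (edgeR, adjusted p = 0.0699).

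Members that did not pass the count filter were Rpl26 and the tissue-restricted paralogs Rpl3l and Rpl10l. Rpl10l had 0 counts in all 8 libraries, and Rpl26 and Rpl3l were at or below 0.126 CPM in each. Of the 50-base stretches of the Rpl26 transcript, 71.28% occur in transcripts of 12 other genes, all pseudogenes. The level of Rpl26 is therefore uncertain, and the part of shared sequence in its low counts was not tested. Rpl39l, a paralog best known from testis, was at 0.0530, 9.06, 0.210 and 8.47 CPM in wild-type and 0.719, 1.29, 0.176 and 60.3 CPM in Neat1 null. Its levels followed no group: wild-type libraries 2 and 4 and null library 4 were high and the others low, and the change was 1.82 ± 2.07 (edgeR, adjusted p = 0.562). Without null library 4 it was -2.60.

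The 4 X-linked members are given apart because Xist separated the groups. Xist was at 498 to 1815 CPM in the wild-type libraries, at 233 CPM in Neat1 null library 3 and at 1.89 to 3.52 CPM in the other null libraries; its part in these results was not tested. Of the 4, 1 was called, beside 9.97% of all genes called higher, and their median log2 fold change was 1.47. Rps4x was at 1353, 1309.9, 1198 and 1184 CPM in wild-type and 10073, 1754, 4652 and 1811 CPM in Neat1 null and rose by 1.86 ± 0.58 (edgeR, adjusted p = 0.0394). Rpl10, which completes the large subunit late in assembly, was at 766, 843, 887 and 878 CPM in wild-type and 1685, 1185, 3155 and 1165 CPM in Neat1 null, with a change of 1.09 ± 0.44 (edgeR, adjusted p = 0.0926). Every null library of Rpl10 lay above the wild-type range, and library 3 was the highest. Rpl36a was at 307, 279.5, 267 and 252 CPM in wild-type and 3409.9, 279.8, 253 and 213 CPM in Neat1 null, high in null library 1 alone, with 1.91 ± 0.80 (edgeR, adjusted p = 0.108). Rpl39 was at 371, 437, 395 and 404 CPM in wild-type and 449, 727, 1475 and 432 CPM in Neat1 null, highest in null library 3, with 0.94 ± 0.44 (edgeR, adjusted p = 0.141).

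Per kilobase of 1 coding transcript per gene, Rplp1, Rpl32 and Rpl41 had the highest wild-type levels of the large subunit, at 2316, 2027 and 2023 CPM per kb. Rps15, Rps18 and Rps14 led the small subunit at 1982, 1780 and 1440 CPM per kb. In Neat1 null the same genes had mean levels of 14668, 7665, 13383, 10777, 3498 and 7047 CPM per kb. Rps18 thus had the second highest wild-type level of its subunit and 1 of its 3 smallest fold changes.

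Each null library was then set against the wild-type mean, gene by gene. Over the 77 tested members the median ratio was 6.83 in Neat1 null library 1, 1.61 in library 2, 3.82 in library 3 and 1.53 in library 4. Members above every wild-type library numbered 74, 71, 73 and 69, where 31.4%, 23.8%, 36.3% and 28.4% of all genes tested lay above every wild-type library. The members below every wild-type library numbered 0, 0, 1 and 3. The share of all genes below every wild-type library is not given here, so these counts have no baseline. Library 1 was the highest null library for 61 members, library 3 for 15 and library 4 for 1, Rpl39l. The middle 50% of members spanned ratios of 4.15 to 10.2 in library 1 and 2.81 to 5.22 in library 3, against 1.39 to 1.93 in library 2 and 1.35 to 1.82 in library 4. By subunit, the medians were 6.38 (large) and 7.81 (small) in library 1, 1.59 and 1.63 in library 2, 3.86 and 3.72 in library 3, and 1.54 and 1.52 in library 4.

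**Figure D3:**
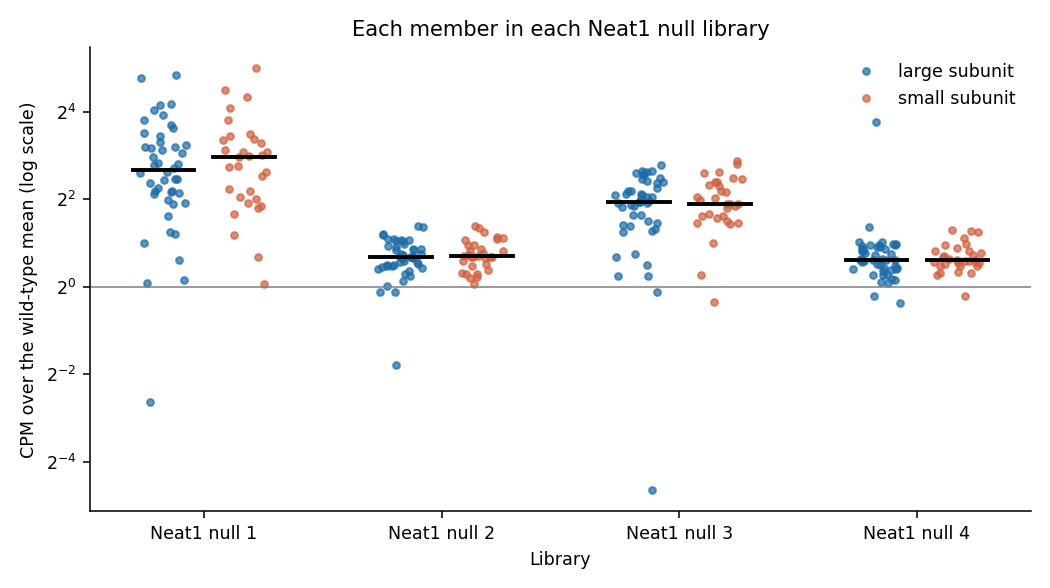
CPM of each member in each Neat1 null library over its wild-type mean (log scale), 1 point per member, large subunit left and small subunit right within a library, with black bars at the medians. Libraries 1 and 3 lie higher and spread more widely than libraries 2 and 4, and the lowest points in libraries 1 to 3 are Rpl39l.

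Neat1 null libraries 1 and 3 were both high for most members, with 74 and 73 of 77 above every wild-type library, but to different degrees. Library 1 was above library 3 for 62 members and at least 4 times as high for 13. Rps24 was 26.4 times as high in library 1, Rps27a 13.8 times, Rpl36a 13.5 times, Rpl5 6.44 times and Rpl21 6.19 times. The reverse order held for 15 members, led by Rpl15 at 5.53 times, Rpl39 at 3.28 times, Rps27 at 3.05 times and Rpl7a at 2.87 times as high in library 3. Rpl15 was at 296, 271, 294 and 207 CPM in wild-type and 284, 689, 1571 and 543 CPM in Neat1 null: it stayed within the wild-type range in library 1 and was higher in the other 3 null libraries, and it rose by 1.53 ± 0.49 (edgeR, adjusted p = 0.0416). With 1 library on each side these ratios compare the libraries and have no replicate check.

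**Figure D4:**
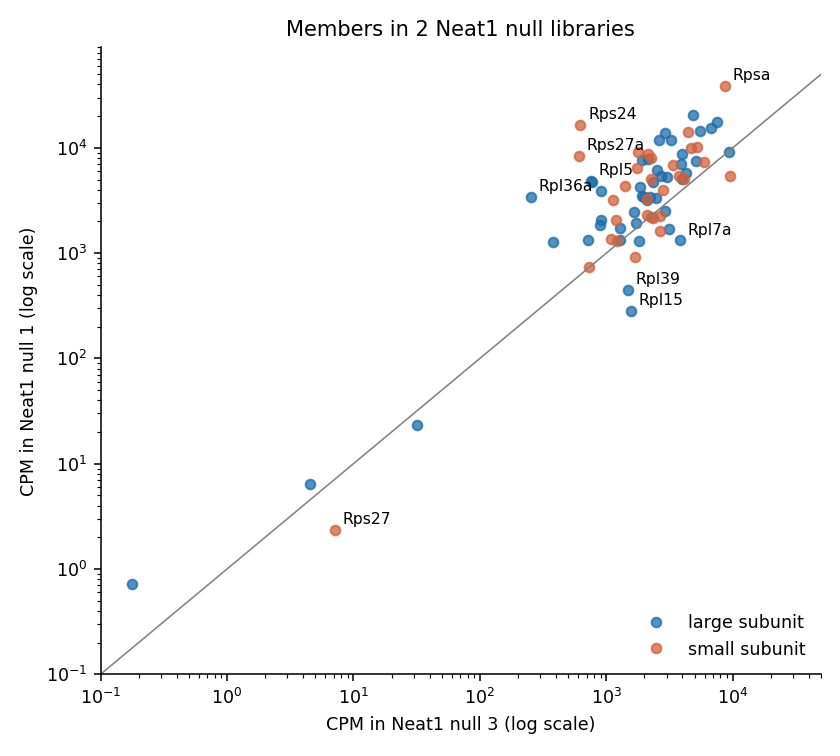
CPM of each tested member in Neat1 null library 1 against Neat1 null library 3 (both axes log scale), coloured by subunit, with the line of equal values. Rps24, Rps27a, Rpl36a and Rpl5 lie far above the line, and Rpl15, Rpl39, Rpl7a and Rps27 below it.

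To compare members with one another, all genes were refitted with the summed member counts of each library as its size, so that 0 means a change equal to that of the sum. No member was called (edgeR, 0 of 77, smallest adjusted p = 0.0931), and 1, Rpl23, had an unadjusted p under 0.05. DESeq2 called 1 member, Rpl23, and its share over all genes is not given here. In edgeR, 28.4% of all genes tested were called lower and 0.0751% higher relative to the sum. Relative log2 fold changes were above 0 for 35 members and below 0 for 42, from -1.16 for Rpl23 to 1.15 for Rpl39l. Rplp2, at 0.85, and Rpl36, at 0.88, lay above the sum without passing the test. These values do not show that the members changed alike.

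Gene length also moved with genotype. Across tested genes, the slope of a library's log2 CPM deviation on log2 transcript length was 0.145 to 0.276 in wild-type and -0.359, -0.00517, -0.508 and -0.0515 in Neat1 null libraries 1 to 4, so short transcripts had relatively more counts in null libraries 1 and 3. The median transcript of a member is 805 bases long, against 2923 for all genes. Among members, the shorter ones (median 577 bases) were called in 26 of 38 cases (median log2 fold change 1.89). The longer ones (median 1106 bases) were called in 27 of 39 (1.77). Both median lengths were below the 2923 bases of all genes. Over all genes tested, 9.97% were called higher. The 1 member called after the length and GC correction was Rps15a. Of the corrected changes, 74 of 77 were above 0 and 35 had an unadjusted p under 0.05 in edgeR, with no share over all genes to set beside it. The transcript used for Rps15a is annotated at 5179 bases. With merged exon lengths instead, an alternative added after the data were seen, 11 members were called, beside 4.69% of all genes, and the median was 1.21. Rn45s, which counts ribosomal RNA precursor left in the libraries, made up 0.138% to 0.939% of wild-type counts, 5.23% in Neat1 null library 1 and 0.457% to 0.596% in the other null libraries. With Rn45s left out of all gene counts, the difference in the share of ribosomal protein counts was 8.30 percentage points. The part of residual ribosomal RNA in the single-gene results was not tested.

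**Figure D5:**
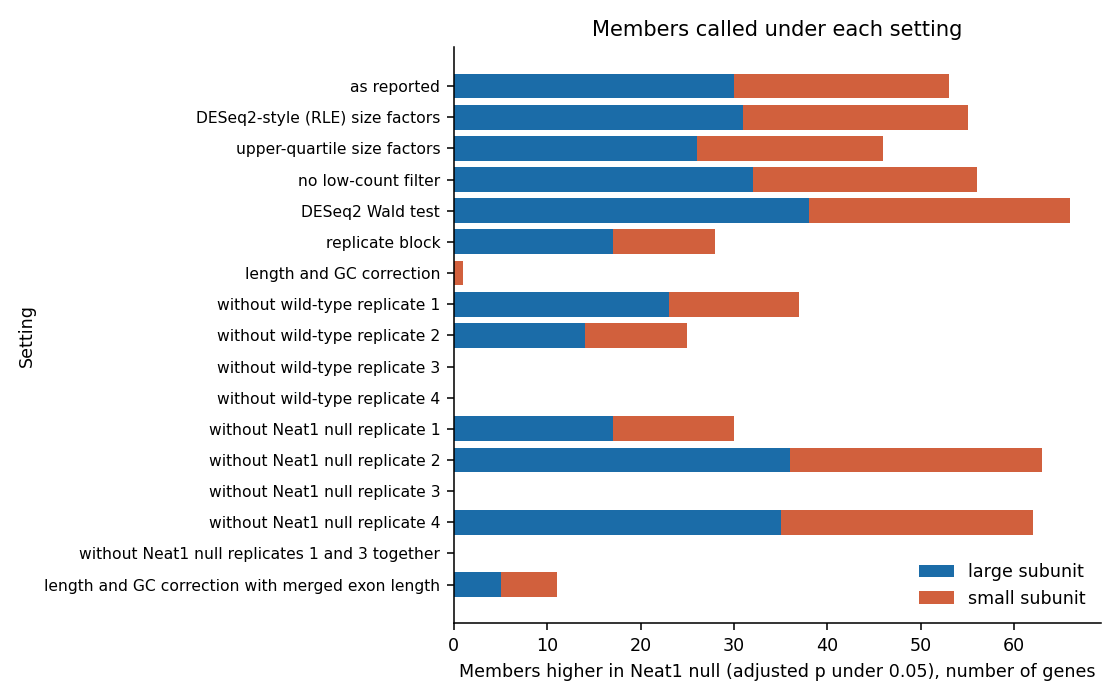
Number of members called higher in Neat1 null (adjusted p under 0.05, horizontal axis) under each setting, stacked by subunit. The count is 53 as reported, 66 with DESeq2, 1 after length and GC correction, and 0 without wild-type library 3, wild-type library 4, Neat1 null library 3, or Neat1 null libraries 1 and 3 together.

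Ribosomal proteins outside the naming rule were also counted. Of 7 tested, 5 were higher and 0 lower, with a median log2 fold change of 1.46, where 9.97% of all genes were higher. After the length and GC correction 1 of the 7 was called higher and the median was 0.61. Fau, whose protein carries ribosomal protein S30, was at 582, 792, 532 and 704 CPM in wild-type and 7663, 947, 2843 and 733 CPM in Neat1 null and rose by 2.22 ± 0.66 (edgeR, adjusted p = 0.0332). The paralogs Rpl36al, Rpl7l1 and Rpl22l1 rose by 1.87 ± 0.48 (edgeR, adjusted p = 0.0217), 1.48 ± 0.41 (edgeR, adjusted p = 0.0279) and 1.34 ± 0.41 (edgeR, adjusted p = 0.0372). Rps3a1 rose by 1.68 ± 0.54 (edgeR, adjusted p = 0.0443); it is a small subunit protein whose symbol falls outside both the rule and this list.

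Translation factors and other genes with 5′TOP starts formed the next list. Of 18 tested, 5 were higher and 0 lower, with a median of 0.48, beside 9.97% of all genes. After the length and GC correction 0 of the 18 were called and the median was 0.25. Subunits of elongation factor 1 were among those called: Eef1d, at 318, 209.9, 152 and 181 CPM in wild-type and 4535, 431, 1255 and 420.3 CPM in Neat1 null, rose by 2.95 ± 0.70 (edgeR, adjusted p = 0.0191), and Eef1g and Eef1b2 rose by 1.74 ± 0.53 (edgeR, adjusted p = 0.0360) and 1.57 ± 0.49 (edgeR, adjusted p = 0.0399). Eif3f rose by 1.89 ± 0.51 (edgeR, adjusted p = 0.0249). Eef1a1, the most abundant elongation factor, did not pass at 0.25 ± 0.47 (edgeR, adjusted p = 0.723), nor did Pabpc1, the poly(A)-binding protein, at -1.34 ± 0.49 (edgeR, adjusted p = 0.0662). Of 6 snoRNA host genes with 5′TOP starts, 1 was higher, Snhg1, at 2.47 ± 0.67 (edgeR, adjusted p = 0.0278), and the median was 0.87. Snhg1 was at 531, 63.6, 67.8 and 64.0 CPM in Neat1 null, and without null library 1 its change was 0.99. After the length and GC correction 1 of the 6 was called higher and the median was 0.087. Snhg6, Snhg8 and Snhg12 did not pass, at 0.56, 0.88 and 0.86.

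Genes of ribosome assembly and of RNA polymerase I, which transcribes ribosomal RNA, formed 2 further lists. Of 26 assembly genes 11 were called higher and 0 lower (median 1.28), beside 9.97% of all genes. After the length and GC correction 2 were called and the median was 1.22. Eif6, which keeps the large subunit from joining too early, was at 173, 120.2, 66.3 and 65.2 CPM in wild-type and 2022, 247, 705 and 249.9 CPM in Neat1 null and rose by 2.92 ± 0.66 (edgeR, adjusted p = 0.0185). Nhp2 and Nop10, parts of box H/ACA particles, rose by 2.84 ± 0.69 (edgeR, adjusted p = 0.0200) and 1.59 ± 0.38 (edgeR, adjusted p = 0.0190), and Bop1, which processes large subunit RNA, by 2.16 ± 0.52 (edgeR, adjusted p = 0.0191). Of 16 polymerase I genes 8 were higher and 0 lower (median 1.51), among them the shared subunits Polr1c, at 1.72 ± 0.38 (edgeR, adjusted p = 0.0183), Polr2f, at 1.93 ± 0.45 (edgeR, adjusted p = 0.0189), and Polr2h, at 1.75 ± 0.40 (edgeR, adjusted p = 0.0186), and the subunit Znrd1, at 1.75 ± 0.40 (edgeR, adjusted p = 0.0185). After the length and GC correction 0 of these 16 were called and the median was 0.76.

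The list of 15 regulators of ribosomal protein mRNAs and p53 had 0 genes higher and 1 lower, with a median of 0.04. Of all genes tested, 9.97% were higher and 7.72% lower. Mdm4, an inhibitor of p53, ranged from 60.8 to 109 CPM in wild-type and from 13.6 to 40.5 CPM in Neat1 null and fell, with a change of -1.67 ± 0.39 (edgeR, adjusted p = 0.0189) and no overlap between the groups. Mdm2, the ubiquitin ligase of p53 that Rpl5 and Rpl11 bind, was at 2137, 571, 1049 and 737 CPM in wild-type and 244, 522, 133 and 705 CPM in Neat1 null. Its change of -1.49 ± 0.56 (edgeR, adjusted p = 0.0754) did not pass, and the groups overlapped. Eif4ebp1 and Cdkn2a did not pass, at 1.03 ± 0.41 (edgeR, adjusted p = 0.0875) and 1.40 ± 0.48 (edgeR, adjusted p = 0.0541). Whether these lists differ from one another or from the ribosomal protein genes was not tested.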

How the data were processed

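For each of 8 libraries (4 wild-type, 4 Neat1 null), the authors deposited 1 raw count per gene symbol, from total RNA and a stranded TruSeq kit, per the labels. Build mm10 and the tools CASAVA 1.8, STAR and DESeq2 appear in the submitters' processing notes without roles; the counter and its settings are not given in the sources used here. Reads outside genes (9.83% to 15.7% in wild-type, 5.48% to 11.0% in null) and ambiguous reads did not enter library sizes or tests. Depth was 19651035 to 38950207 gene counts, and libraries within a group differed beyond sampling noise (chi-square over degrees of freedom 64.9 or more).

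From these counts, genes were filtered with filterByExpr (minimum count 10), which left 13316, scaled by TMM and tested with edgeR 4.0.16 in R 4.3.3 (robust quasi-likelihood F test, 2-sided, genotype only), with Benjamini-Hochberg adjustment over all genes tested and a threshold of 0.05. A standard error is the size of the log2 fold change divided by the square root of F. Alternatives were other scaling, no filter, DESeq2 1.42.0, a replicate block, spline offsets (5 degrees of freedom each) for length and GC content, and libraries left out. The code was tested on simulated data. Lengths, shared 50-base stretches and gene positions came from GENCODE M21 (GRCm38), where 21785 of 23420 symbols matched directly and 1277 by synonym, and promoters from RefSeq.

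The members and lists were chosen with earlier results of these data known. Always named were stalk, 5S particle and X-linked members, Rpsa, Rps6, Rps19, Rps27, Rps27l, Rps27a, Rpl38, Rpl22 and Rpl41. Added were, per subunit, the 5 smallest p-values, the 3 largest and 3 smallest fold changes and the 3 highest mean CPM, the 5 extremes each way relative to the members' sum, members not tested, and up to 4 genes per related list. Rpl15, Rpl34, Rpl30, Rps15a, Rpl21, Rpl7a, Rpl32, Rpl3, Rps20, Eef1a1, Pabpc1 and Rps3a1 were named after their values were seen. Single-gene results of 3 members are not reported here; the counts, sums and medians include them. Replicate numbers were checked for pairing: correlations of deviations between same-numbered libraries were 0.308, -0.306, -0.0333 and 0.0897, so they were not treated as pairs.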

Additional observations from a re-analysis of the deposited data

Results flagged for a closer look

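Among 4 libraries of a group, a value was singled out when its gap to the nearest other library relative to the group's range exceeded Dixon's 95% critical value. All tested members, their share of counts and the subunit measures were examined in both genotypes. Of 162 groups of 4, 19 held such a value. Chance alone gives about 1 in 20 for a single group, but these groups share the same 8 libraries and are not independent. Neat1 null library 1 was far above the other null libraries for 14 members: Rpsa at 38704 CPM, Rplp1 at 20572, Rps24 at 16464, Rplp2 at 13834, Rpl36 at 11943, Rpl3 at 11790.1, Rps19 at 9184, Rps20 at 8715, Rps27a at 8374, Rpl5 at 4879, Rpl21 at 4750.1, Rpl38 at 3854, Rpl36a at 3409.9 and Rpl22 at 1272 CPM. For Rps24 the other null libraries were at 624 to 628 CPM, for Rps27a at 609 to 813 CPM and for Rpl36a at 213 to 279.8 CPM, close to the wild-type libraries. For Rpsa they were at 2791 to 8610.0 CPM, above every wild-type library. Without library 1, the log2 fold changes of 11 of these were 1.51 for Rpsa, 1.32 for Rplp1, 0.28 for Rps24, 1.69 for Rplp2, 1.74 for Rpl36, 1.20 for Rps19, -0.15 for Rps27a, 0.45 for Rpl5, 1.33 for Rpl38, -0.15 for Rpl36a and 0.19 for Rpl22.

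The other 5 values lay in other libraries. Rpl7a was at 3793 CPM in Neat1 null library 3 against 1322 to 1464 CPM. Rpl39l was at 60.3 CPM in Neat1 null library 4 and at most 1.29 CPM in the other null libraries. Wild-type library 3 was high for Rpl5, at 613 CPM against 508 to 513 CPM. Wild-type library 2 was high for Rps28, at 260.3 CPM against 169.8 to 182 CPM, and for Rps15, at 1080.5 CPM against 953 to 967 CPM.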

How the results depend on the processing

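No member was called lower in any setting tried. Other scaling and no count filter gave 46 to 56 members higher, beside 7.6% to 10.8% of all genes, and DESeq2 66 beside 15%. The length and GC correction left 1 member (0 large, 1 small) and 4 related genes higher, beside 2.32% of all genes. The members' median log2 fold change was 0.77, and 30 related genes were higher as reported. The correction turned the direction of Rps27 (-0.15), Rpl23 (-0.066), Rps18 (-0.27), Snhg8 (-0.15) and Snhg6 (-0.33). With merged exon lengths 11 members (5 large, 6 small) and 9 related genes were higher, beside 4.69% of all genes. The median was 1.21, and 0 related genes were lower. Without Neat1 null libraries 1 and 3 together, 0 members (0 large, 0 small) and 0 related genes were called higher, 0 lower, beside 0.0355% of all genes higher. The median was 0.69, and Rps27a (-0.069), Rpl36a (-0.17), Rpl23 (-0.18) and Snhg6 (-0.015) turned. Leaving out each library in turn gave 0 to 63 members (0 to 36 large, 0 to 27 small), 0 to 36 related genes higher and 0 to 2 lower. In these fits 0.00746% to 12.5% of all genes were called higher. Over these fits Rps27a ranged from -0.15 to 2.10, Rpl36a from -0.15 to 2.27 and Rpl39l from -2.60 to 2.43, Rps27a and Rpl36a negative without Neat1 null library 1 and Rpl39l without library 4. Wild-type library 1 left out gave 14 small subunit members. Related genes lower numbered 1 as reported, 2 with upper-quartile scaling and 3 with DESeq2. Relative to the members' sum, 0 were called as reported, 1 with DESeq2, 6 after the length and GC correction, 3 (Rpl23, Rpl36a and Rps27a) without Neat1 null libraries 1 and 3, and 0 to 1 with a library left out. As reported, 28.4% of all genes were called lower and 0.0751% higher relative to that sum. Shares over all genes in the other relative fits are not given here, so their counts have no baseline. The share difference was 4.35 to 9.96 percentage points and the large to small difference -0.15 to -0.09 with a library left out. Where counts fell with fewer libraries, fewer samples were tested; other causes were not tested.

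With the replicate number as a block, 28 members were higher (17 large, 11 small), beside 8.21% of all genes, with a median of 1.46; the labels do not say that the numbers pair cultures, and 2 of 8 libraries correlated best with their own number. Depth limits few members; for Rpl30, Rps27 and Rpl39l the counts per library were as low as 27, 26 and 2.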
